A study of Mus musculus with 14 samples.

Results

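The genes of the AP-1 transcription factors comprised Fos, Fosb, Fosl1 and Fosl2 of the Fos family, Jun, Junb and Jund of the Jun family, and Atf3, Batf and Batf3 of the ATF and BATF factors. These 10 genes were taken by name from the 21755 protein-coding genes annotated on chromosomes 1 to 19 and X. Sites of acetylated histone H3 (H3K27ac) were assigned to a gene if they overlapped its body or lay within 50 kb of either end. Of 122171 H3K27ac sites on these chromosomes, 195 (0.160%) met this rule for at least 1 AP-1 gene. The deposited list held 122228 sites in all. The counts per gene added up to 197, because 2 sites lay in the windows of both Atf3 and Batf3, which are neighbours on chromosome 1.

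The sites came from immortalized mouse embryo fibroblasts (iMEF) that lived on a human ASH2L protein with an FKBP12F36V tag, introduced with a lentiviral construct, in place of their own Ash2l. ASH2L is a shared subunit of the KMT2 complexes, which methylate histone H3. The compound dTAG-13 binds the tag and brings about degradation of the fusion protein. Chromatin immunoprecipitation with sequencing (ChIP-seq) for H3K27ac, which marks promoters and enhancers in use, was carried out in 2 libraries each of cells without dTAG and of cells at 5 times of dTAG treatment, which were 30 min, then 2, 4, 8 and finally 16 h. Input chromatin, which is not immunoprecipitated, came from 1 library without dTAG and 1 library after 16 h. All groups, the control included, carried the fusion protein, and the study names a single cell clone for its ChIP-seq.

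Peaks of these samples were joined by the authors into 1 list of positions. The list had no read count or height for any site and no sample label. A site may therefore come from control cells, from any time after dTAG, or from several of these. The read depth behind a site was unknown, no value below has a replicate error, and no time point was compared with control. Counts and shares at the AP-1 genes are given as descriptions beside the same measure over all protein-coding genes or all sites, with no test.

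AP-1 is a dimer of basic leucine zipper (bZIP) proteins. Jun proteins pair with each other or with Fos proteins, whereas Fos proteins need a partner, and ATF and BATF factors join these dimers as further partners. Several AP-1 genes are immediate early genes, whose transcription is switched on within minutes by growth factors and stress through kinases of the MAPK pathways. In fibroblasts AP-1 is known as a driver of proliferation and of genes that remodel the extracellular matrix, and it binds to many enhancers.

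The labelled cell type was checked against marker genes. All 9 fibroblast markers had a site that overlapped the 1 kb window around a transcription start site (TSS), compared to 55.8% of protein-coding genes. A site with its middle in that window was found at 7 of them, compared to 54.7% of protein-coding genes, the exceptions being Col1a1 and Prrx1. The share of the window at the outermost 5′ end inside a site ranged from 21.4% at Pdgfra to 100%, as at Col1a1, Vim and Pdgfrb. Markers of blood (0 of 4), epithelium (0 of 2), liver (0 of 1) and muscle (0 of 1) had none by either rule. Of 2 endothelial markers, Cdh5 had 1 such site and Pecam1 had none.

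Positions below are given in base pairs (bp) from the outermost 5′ end of a gene in GENCODE release M21, counted in the direction of transcription, with negative values upstream. Coordinates refer to GRCm38 (mm10). A gene was called as having a promoter site if the middle of a site lay within 1 kb of any of its annotated TSSs. This was the case for 7 of the 10 AP-1 genes, compared to 54.7% of protein-coding genes. Of the 10 genes, 8 had a CpG-rich 5′ end as defined below, and 6 of these 8 had a promoter site. Among all protein-coding genes the share was 85.0% at CpG-rich and 30.2% at other 5′ ends. With any overlap of the site and the window in place of its middle, 8 of the 10 genes had one, compared to 55.8% of protein-coding genes. The gene added was Jun. Batf and Jund had none by either rule.

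**Figure D1:**
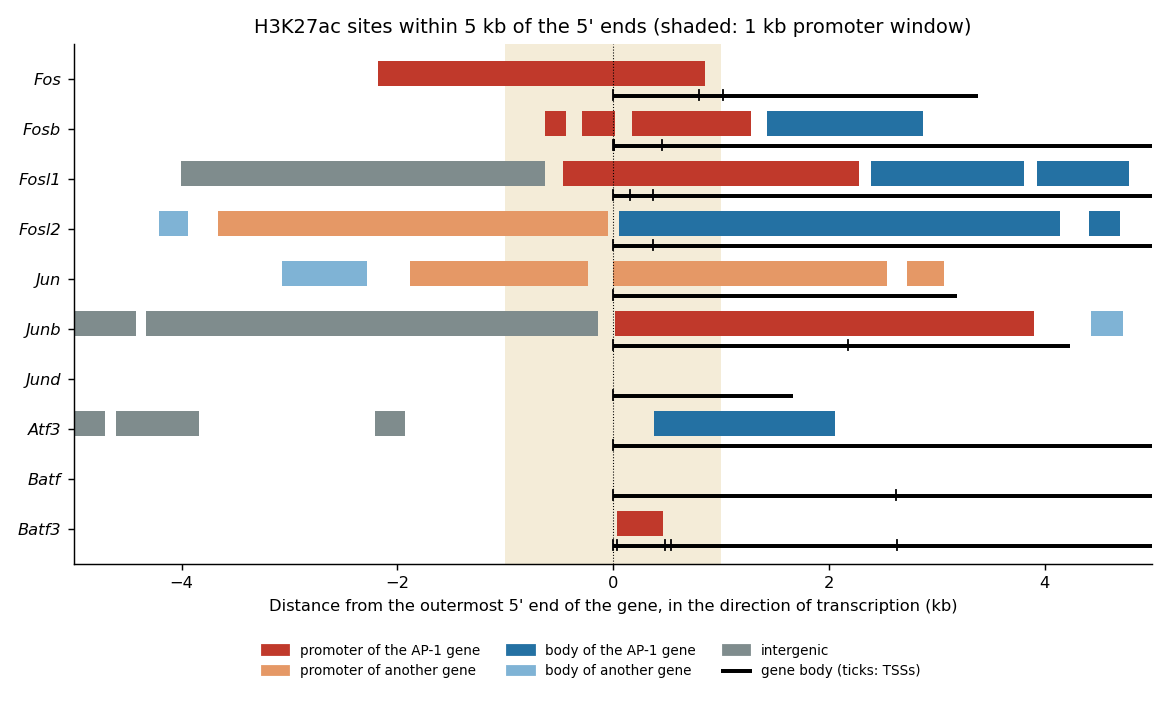
H3K27ac sites within 5 kb of the outermost 5′ end of each AP-1 gene, with distance from that end in kb on the x axis and 1 gene per row. Coloured blocks are sites by class, black lines are gene bodies with ticks at annotated TSSs, and the shaded band is the promoter window of 1 kb on either side. Fos, Fosb and Fosl1 had a site over the 5′ end, Fosl2, Jun and Junb had a pair of sites with a short gap at the 5′ end, and the rows of Jund and Batf are empty here. Of the orange sites at Jun, those on either side of the 5′ end are at TSSs of the antisense gene Junos, and the one from +2723 to +3062 is at the TSS of Gm12703.

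The arrangement at the 5′ end differed among the genes. The outermost 5′ end lay inside a site in 3 AP-1 genes, namely Fos, Fosb and Fosl1, compared to 36.5% of protein-coding genes. It lay in a gap of at most 500 bp between a pair of sites in 3 other genes, Fosl2, Jun and Junb, compared to 7.84% of protein-coding genes. The gap measured 101 bp at Fosl2, 153 bp at Junb and 238 bp at Jun. The rest of the promoter window of these 3 genes was nearly filled by sites. The part of each gap that lies upstream of the 5′ end is shown, because it is the stretch between a pair of sites next to the outermost annotated 5′ end of these genes. Fosl2 also has annotated starts inside sites, at +372, at +10720 and, in RefSeq, at +671. The stretches are chr5:32135752-32135800 on the plus strand for Fosl2, chr8:84978719-84978857 on the minus strand for Junb and chr4:95052223-95052457 on the minus strand for Jun. Capitals mark the octamer TGACATCA, a variant of the AP-1 site known from the Jun promoter.
Fosl2: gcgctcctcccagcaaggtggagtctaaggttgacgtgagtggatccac
Junb: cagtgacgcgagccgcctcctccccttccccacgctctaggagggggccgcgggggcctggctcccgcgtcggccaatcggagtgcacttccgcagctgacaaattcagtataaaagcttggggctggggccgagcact
Jun: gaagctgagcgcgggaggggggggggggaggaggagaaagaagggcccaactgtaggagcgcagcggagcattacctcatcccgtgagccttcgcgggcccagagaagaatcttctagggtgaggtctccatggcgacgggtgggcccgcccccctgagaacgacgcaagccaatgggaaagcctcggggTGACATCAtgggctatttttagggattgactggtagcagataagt

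The octamer stood at position -45 of Jun and was not found in the stretches of Fosl2 and Junb on either strand. It was searched for after the sequence had been seen. It occurred in 3.62% of 32851 RefSeq promoters (GRCm38.p6; 250 bases before to 50 bases after the start). Of the AP-1 genes, 9 have an entry in that table, and Jun was the only one of them with this octamer. Fosl1 has no entry.

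Promoter cover was measured as the percent of bases within 1 kb of the outermost 5′ end that lay inside a site. The median was 77.1% over the 10 AP-1 genes and 16.5% over all protein-coding genes. Values ranged from 0 at Jund and Batf to 94.95% at Fosl2, so the genes were far from uniform. Of the 10 genes, 8 were above the median of all genes. Cover was not compared among CpG-rich 5′ ends alone.

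Fos (chr12:85473890-85477273, plus strand) encodes c-Fos, the archetypal immediate early factor. A single site of 3035 bp, from -2179 to +855 (chr12:85471711-85474745), lay over its 5′ end. It covered 1000 of the 1000 bp upstream of the 5′ end and 855 bp of those downstream, and it overlapped coding sequence. Promoter cover was 92.8%, a level reached by 5.34% of protein-coding genes. No other AP-1 gene had its whole upstream kilobase inside 1 site.

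Fosb (chr7:19302696-19310051, minus strand) encodes a relative of c-Fos that is also induced early. Its promoter was broken into 3 sites of 201, 299 and 1100 bp, from -634 to -434, from -284 to +14 and from +177 to +1276. The 5′ end was inside the middle one of these. Cover was 66.2%, the lowest of the Fos family, with 485 bp covered upstream and 838 bp downstream. A further site of 1440 bp followed in the gene body, from +1430 to +2869.

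Fos and Fosb share a CArG box in these sites. The CArG box is the sequence bound by serum response factor (SRF), through which growth factors induce both genes. It lay at -309 to -300 in the site of Fos and at -266 to -257 in the 299 bp site of Fosb. The surroundings are shown because both boxes lay inside a site, in chr12:85473531-85473640 on the plus strand for Fos and in chr7:19310258-19310367 on the minus strand for Fosb. Capitals mark the CArG box.
Fos: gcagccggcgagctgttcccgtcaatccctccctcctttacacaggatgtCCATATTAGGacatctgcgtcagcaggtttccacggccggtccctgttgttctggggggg
Fosb: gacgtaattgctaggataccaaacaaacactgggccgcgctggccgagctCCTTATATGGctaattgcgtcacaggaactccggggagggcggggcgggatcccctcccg

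Both boxes lay outside the RefSeq promoter sequences, in which none of the 9 AP-1 genes with an entry had a CArG box. Of all RefSeq promoters, 1.63% had one. In the 300 bp around the middle of a site, 1.47% of all sites and 6 of 195 sites at the AP-1 genes (3.08%, 95% Wilson interval 1.42 to 6.55%) had a CArG box. Of the 11 promoter sites of AP-1 genes, 2 had one in this window, at Fosb and at Junb. The box of Fos shown above is not counted among these 6 sites, since it is far from the middle of its wide site. A distal site of Fos, from -11306 to -10686, is among them, with a box at -10860 to -10851. The box in the promoter site of Junb was downstream of its 5′ end, at +2085 to +2094, near an internal TSS at +2176. Junb also had boxes inside upstream sites but away from their middles, at -1450 to -1441 and at -11675 to -11666.

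Fosl1 (chr19:5447547-5455946, plus strand) encodes Fra-1, a Fos protein without a transactivation domain. A site of 2741 bp, from -460 to +2280, lay over its 5′ end, and a site of 3380 bp from -4007 to -628 lay just upstream. The first kilobase downstream was covered completely, as at no other member of the Fos family, and the kilobase upstream over 833 bp. Cover was 91.7%.

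Fosl2 (chr5:32135801-32157842, plus strand) encodes Fra-2. Its 5′ end was flanked by a site of 3614 bp from -3663 to -50 and one of 4088 bp from +52 to +4139. Cover was 94.95%, the highest of the 10 genes, and was reached by 4.11% of protein-coding genes. The middles of both flanking sites were more than 1 kb from a TSS of Fosl2. Fosl2 was counted as having a promoter site because of 2 other sites, near an internal TSS at +10720. The upstream flanking site also lay at the TSS of Gm10463, a gene model of uncertain status.

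Jun (chr4:95049034-95052222, minus strand) encodes c-Jun, the main partner of Fos proteins. The sites on either side of its 5′ end measured 1648 bp, from -1883 to -236, and 2533 bp, from +3 to +2535. Their middles were 1059 and 1269 bp away from the single annotated TSS, just beyond the limit of 1 kb. By the middle of the site Jun therefore had no promoter site, although 88.1% of its promoter window was covered. The antisense gene Junos starts at +688 within Jun, and both sites also count as sites at TSSs of Junos.

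Junb (chr8:84974484-84978718, minus strand) encodes a Jun protein that is a weaker activator than c-Jun. Its body was nearly filled by a site of 3884 bp from +14 to +3897, which overlapped coding sequence. This site counted as a promoter site only through an internal TSS at +2176, whose transcript is not annotated as protein-coding. Upstream lay a site of 4193 bp from -4332 to -140 and another of 3495 bp from -7917 to -4423. Promoter cover was 92.4%, close to that of Fos and Fosl1.

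Jund (chr8:70698949-70700616, plus strand) encodes the Jun protein that is present in many resting cells. No listed site lay in its promoter window, its body or the 50 kb downstream. The nearest site upstream ended 24938 bp before the 5′ end, at the promoter of Lsm4, and the nearest site downstream began 166201 bp after it. The stretch without a listed site measured 191138 bp. It held 11 protein-coding genes, and 5 of these had a CpG-rich 5′ end. Of all stretches between neighbouring sites, 1.69% were as long, and their median was 1044 bp.

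The 5′ end of Jund was itself rich in CpG. The 1001 bp around it had a GC content of 68.3% and a CpG ratio (observed over expected) of 0.88, the highest of the 10 genes in both. A 5′ end was called CpG-rich here at a GC content of at least 50% and a ratio of at least 0.6. By this measure 8 of the 10 AP-1 genes were CpG-rich, the exceptions being Atf3 and Batf with ratios of 0.25 and 0.34. Of the 8 genes, 6 had a promoter site by the middle of the site, the exceptions being Jun and Jund. Among all protein-coding genes a promoter site was found at 85.0% of CpG-rich and 30.2% of other 5′ ends. RefSeq places the start of Jund further upstream, at position -1210, where cover was also 0. Whether the list as used here is complete over this stretch was not tested, so the values of Jund describe the list and cannot be read as an absence of H3K27ac.

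Atf3 (chr1:191170296-191218039, minus strand) encodes a stress-induced factor that often acts as a repressor. It is the longest of the 10 genes, with 47744 bp. At the outermost 5′ end a site of 1671 bp, from +383 to +2053, covered 30.9% of the promoter window. Around an internal TSS at +34699 cover was higher, at 79.4%, with sites of 665 bp from +33748 to +34412 and of 963 bp from +34776 to +35738. RefSeq places the start of Atf3 near this internal TSS, at +34706, and that start lay in the gap of 363 bp between both sites. With RefSeq starts, the genes with a start in such a gap were Jun, Junb and Atf3, whereas the RefSeq start of Fosl2, at +671, lay inside a site.

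Batf3 (chr1:191097847-191108945, plus strand) encodes a factor known for its role in dendritic cells. It had 1 promoter site of 431 bp, from +33 to +463, and a cover of 21.5%. Batf (chr12:85686669-85709087, plus strand), known from lymphocytes, had no site in its promoter window. The sites nearest to its 5′ end were 42540 bp upstream and 18020 bp downstream, the latter within an intron. These genes thus had the lowest promoter cover of the 10, together with Jund.

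**Figure D2:**
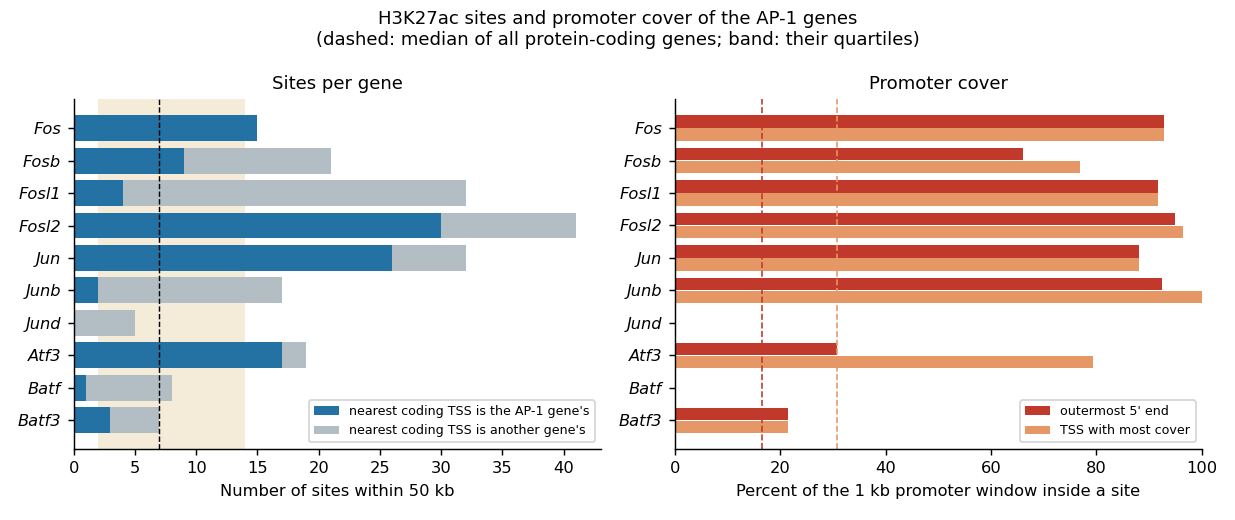
Left, number of H3K27ac sites within 50 kb of each AP-1 gene, split by whether the nearest TSS of a protein-coding transcript belongs to the AP-1 gene, with the median (7) and the quartiles (2 and 14) of all protein-coding genes as dashed line and band. Right, percent of the promoter window inside a site at the outermost 5′ end and at the TSS with most cover, with the medians of all protein-coding genes (16.5% and 30.9%) as dashed lines. Fosl2, Jun and Fosl1 had the most sites, and Jund and Batf had no promoter cover.

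The number of sites within 50 kb ranged from 5 at Jund to 41 at Fosl2. Fos had 15 sites, Fosb had 21, Fosl1 and Jun had 32 each, Junb had 17, Atf3 had 19, Batf had 8 and Batf3 had 7. The median was 18, compared to 7 over all protein-coding genes with quartiles of 2 and 14, and 8 of the 10 genes were above that median. At least as many sites as at Fosl2 were found at 2.66% of protein-coding genes, and at least as many as at Jun and Fosl1 at 4.91%. Batf3 was at the median of all genes and Jund below it.

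Sites filled very different shares of these windows. The percent of the window inside a site was 40.7% at Fosl1, 32.6% at Fosl2, 25.8% at Fosb, 21.5% at Jun, 21.4% at Junb and 14.5% at Fos. It was 7.30% at Atf3, 4.99% at Jund, 3.91% at Batf and 3.30% at Batf3, and the median of all protein-coding genes was 3.40%. All members of the Fos family, Jun and Junb thus exceeded 4 times the median of all genes, and the other 4 genes were nearer to it. Only 0.211% of protein-coding genes had as much of their window covered as Fosl1.

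Sites in the windows need not belong to the AP-1 genes. Windows of Fosl1, Junb and Fosb held 11, 9 and 7 other protein-coding genes, whereas those of Fos, Fosl2 and Jun held none. For 107 of the 195 sites (54.9%) the nearest TSS of a protein-coding transcript was that of an AP-1 gene. This was the case for 15 of 15 sites at Fos, 30 of 41 at Fosl2, 26 of 32 at Jun and 17 of 19 at Atf3. In contrast, it held for 9 of 21 sites at Fosb, 4 of 32 at Fosl1, 2 of 17 at Junb, 3 of 7 at Batf3, 1 of 8 at Batf and 0 of 5 at Jund. The median count of such sites was 6.5 over the AP-1 genes and 1 over all protein-coding genes. The order of the genes changed with this measure, and Fosl1 went from 32 sites, shared with Jun, to 4 sites, below Fos and Atf3.

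**Figure D3:**
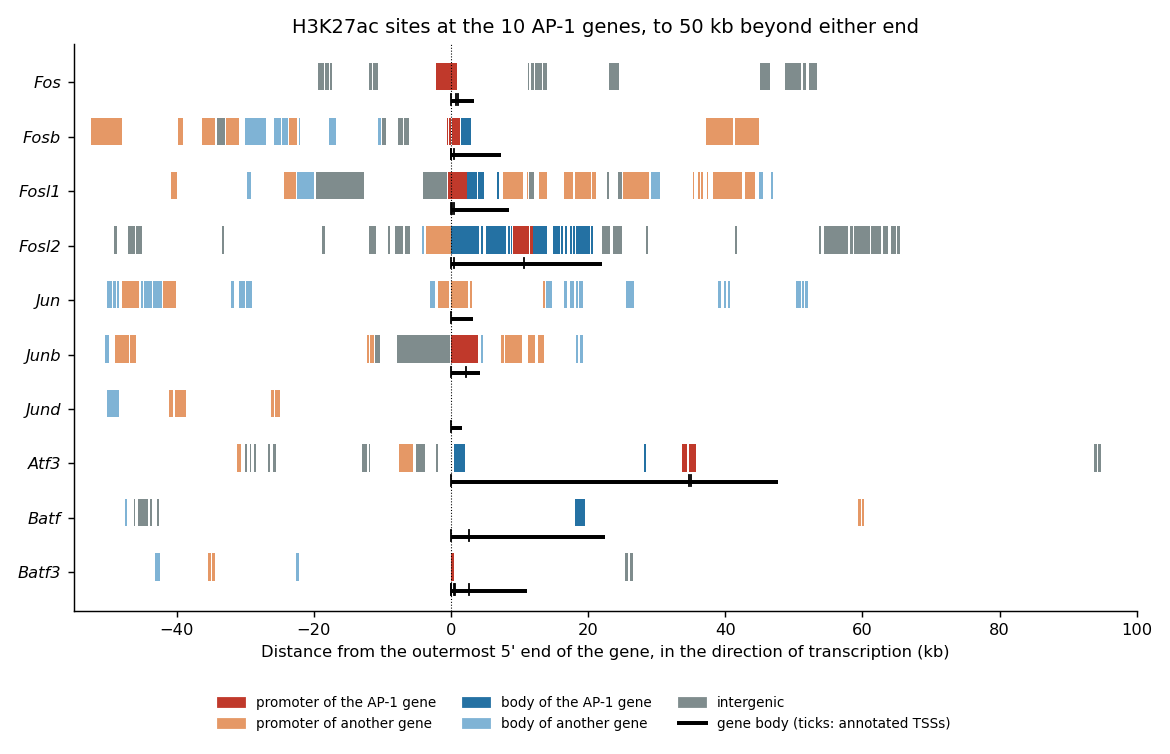
H3K27ac sites at the 10 AP-1 genes from 50 kb before to 50 kb beyond each gene, with distance from the outermost 5′ end in kb on the x axis and 1 gene per row. Colours give the class of each site, and black lines are gene bodies with ticks at annotated TSSs. Sites cluster across the body of Fosl2, far upstream of Jun and over the neighbours of Fosl1, and the window of Jund holds 5 sites, all upstream.

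Distal sites were those of the window with a middle more than 1 kb from every TSS of the gene. Their median was 16.5 per AP-1 gene, compared to 6 over all protein-coding genes. The median of the AP-1 genes moved with the definition, from 4 within 10 kb and 10 within 25 kb to 27.5 within 100 kb, and it was 6.5 with sites less than 1 kb apart merged and 4.5 for sites nearest to a TSS of the AP-1 gene. The median of all genes was not computed for these definitions. Wide sites that reach into a promoter window can count as distal by this rule, as did the pairs that flank the 5′ ends of Jun and Fosl2. Of the 195 sites, 11 were promoter sites of an AP-1 gene, 50 were at TSSs of other genes, 20 were in the body of an AP-1 gene, 46 in the body of another gene and 68 were intergenic. The flanking pairs of Jun and Fosl2 are among those at TSSs of other genes or in the body of an AP-1 gene. The classes were unevenly spread, since 17 of the 20 sites within bodies were in the Fos family and 30 of the 46 sites in bodies of other genes were in the Jun family.

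Distal sites of Fos formed groups on both sides of the gene. When sites less than 1 kb apart were joined into runs, 2 runs with 5 sites lay upstream, from -19339 to -17408 and from -12010 to -10686. Downstream there was a run of 4 sites from +11224 to +14006, single sites at +23015 to +24508 and +45123 to +46445, and a run that began at +48700. All of these were intergenic. At Fosb, 15 of the 18 distal sites were upstream of its promoter, and many of them lay at or near Ercc1, which encodes a DNA repair nuclease subunit, and Ppp1r13l. The remaining sites downstream were 3964 and 3548 bp wide and lay at the TSSs of Vasp.

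Fosl1 lay in a gene-dense stretch. Of its 32 sites, 16 were at TSSs of other genes, the coding ones being Drap1, Ccdc85b, Fibp, Ctsw, Efemp2, Mus81 and Cfl1. The widest of all 195 sites, with 6578 bp, was intergenic and lay from -19220 to -12643 of Fosl1 (chr19:5428327-5434904). Of all sites, 0.169% were as wide. The nearest TSS of a protein-coding transcript to this site was not that of Fosl1 but of AI837181.

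Fosl2 had the broadest domain. From -4205 to +20710 (chr5:32131596-32156511) 17 sites followed each other with less than 1 kb between neighbours. This run measured 24916 bp, of which 20887 bp were inside sites, and spanned the 5′ end and most of the gene body. Of 61769 such runs on the chromosomes used, 0.149% were as wide. A second group of 11 sites, from +53632 to +65485, lay beyond the gene and nearer to Plb1. Fosl2 had 11 sites upstream, 15 in its body and 15 downstream of it.

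Jun had its largest group of sites upstream. Within its window 12 sites lay between -50194 and -40046, and the run went on beyond the window to -57154 with 17 sites in all. This run of 17109 bp (chr4:95092268-95109376) was among the widest 0.416% of runs and lay inside Junos, the long antisense RNA gene that starts within Jun. The run around the 5′ end of Jun was shorter, from -3065 to +3062, with 4 sites. The largest run at Junb, in contrast, spanned its 5′ end, with 4 sites from -7917 to +4725 and 12643 bp. Only 1 of these was a promoter site of Junb by the middle, through the internal TSS at +2176. The outermost sites of the run were nearest to coding TSSs of Hook2 and Prdx2. Coding neighbours with promoter sites in the window of Junb were Rnaseh2a, Gm49661, Prdx2, Hook2, Asna1 and Trir.

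The 5 sites of Jund all lay upstream, 4 of them at TSSs of Pgpep1 and Lsm4. At Atf3, 13 sites lay upstream, including a run of 4 from -7608 to -3843. At Batf, 5 sites formed a run from -47458 to -42540 that was nearer to Jdp2, another bZIP gene, and 2 sites were at the TSS of Flvcr2. At Batf3, 2 sites were at the TSSs of Nsl1 and Tatdn3. The pair of sites that the windows of Atf3 and Batf3 shared lay between the genes, at +25418 to +25858 and +26036 to +26482 of Batf3, and nearer to Batf3.

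Sites at the AP-1 genes were wider than most. The median width was 607 bp, compared to 401 bp over all sites, and 14.9% compared to 4.33% exceeded 2000 bp. The 11 promoter sites of AP-1 genes had a median of 963 bp and ranged from 201 to 3884 bp, and promoter sites of all protein-coding genes had a median of 740 bp. Median widths were 710 bp in the Fos family, 619.5 bp in the Jun family and 437 bp in the ATF and BATF factors.

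AP-1 proteins bind to the sequence TGACTCA, and the sites in the windows of their genes were therefore searched for it. On either strand (as TGACTCA or TGAGTCA) it was found in the 300 bp around the middle of 24 of the 195 sites (12.3%, 95% Wilson interval 8.41 to 17.7%). Over all sites on the chromosomes used the share was 8.88%. Among sites more than 1 kb from any annotated TSS it was 15.7% (21 of 134, interval 10.5 to 22.8%) at the AP-1 genes and 9.71% over all sites. The interval for all 195 sites included the share of all sites, and the interval for the sites away from TSSs did not include the corresponding share. These intervals cover counting error only, and neighbouring sites are not independent. The 300 bp exceed the width of some sites, so a counted motif can lie just outside its site. This was so for a site of 255 bp at Jun, from -48679 to -48425.

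The motif was unevenly spread over the genes. Fosl2 had 7 sites with it, Fosb had 5, Fosl1 and Jun had 4 each, Atf3 had 2, and Fos and Batf3 had 1 each. Junb, Jund and Batf had 0 sites with the motif in this window. As a share of the sites of a gene this was highest at Fosb (23.8%) and Fosl2 (17.1%). These counts are by window. Some of the sites with the motif at Fosb, Fosl1, Fosl2 and Jun, and the 1 at Batf3, lay nearest to a coding TSS of another gene. Over the whole width of the sites, Junb had the motif in 4 sites and Jund in 1, so the absence at these genes held for the middle of the sites only.

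A pair of motifs within the 300 bp was found in 3 sites, and their surroundings are shown because these are the sites with the most AP-1 motifs around the middle. They lay downstream of Fos (chr12:85519675-85519833, plus strand), upstream of Fosb at a TSS of Ercc1 (chr7:19349280-19349468, minus strand) and downstream of Jun (chr4:95001538-95001672, minus strand). The only promoter site of an AP-1 gene with the motif in this window was that of Atf3 downstream of its internal TSS (chr1:191182735-191182841, minus strand). Capitals mark the AP-1 motif on either strand.
Fos: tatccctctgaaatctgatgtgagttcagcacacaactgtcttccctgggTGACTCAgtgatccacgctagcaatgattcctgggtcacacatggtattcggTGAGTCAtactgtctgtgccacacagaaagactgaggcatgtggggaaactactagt
Fosb: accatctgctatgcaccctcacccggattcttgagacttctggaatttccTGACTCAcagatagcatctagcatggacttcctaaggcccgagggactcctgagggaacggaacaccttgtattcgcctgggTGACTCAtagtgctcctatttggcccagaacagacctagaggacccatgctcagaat
Jun: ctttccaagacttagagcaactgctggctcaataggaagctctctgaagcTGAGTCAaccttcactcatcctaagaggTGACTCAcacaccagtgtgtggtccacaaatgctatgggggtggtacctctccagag
Atf3: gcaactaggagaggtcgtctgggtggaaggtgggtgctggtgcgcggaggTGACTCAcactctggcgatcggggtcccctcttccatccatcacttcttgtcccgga

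These matches started at +45835 and +45887 from the 5′ end of Fos, at -39367 and -39285 of Fosb, at +50600 and +50628 of Jun and at +35248 of Atf3. A match shows that these letters are present and not that a factor binds there. In the RefSeq promoters, 5.20% of all promoters had the AP-1 motif, and 0 of the 9 AP-1 genes with an entry did. Away from the middle, the promoter site of Fosl1 had matches that started at +350 and +1308. Fosl2 had such matches at +10649 in a promoter site and at +53 in the site just downstream of its 5′ end.

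**Figure D4:**
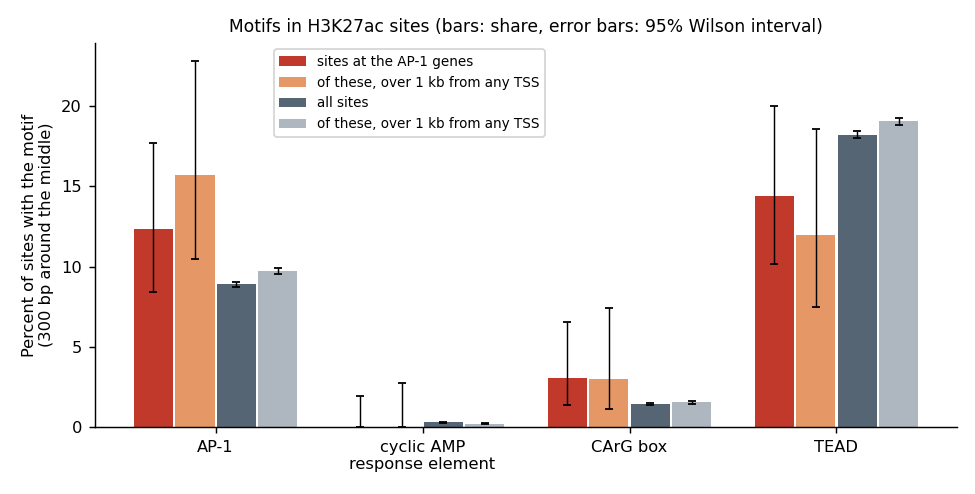
Percent of H3K27ac sites with each motif in the 300 bp around the middle of the site, for sites at the AP-1 genes, those of them more than 1 kb from any TSS, and the same for all sites. Bars are shares and error bars are 95% Wilson intervals. For the AP-1 motif (12.3% and 8.88%) and the TEAD motif (14.4% and 18.2%) the interval at the AP-1 genes includes the share over all sites, and the cyclic AMP response element was found in this window of 0 of 195 sites. Among sites more than 1 kb from any TSS, the AP-1 interval lies above the share over all such sites and the TEAD interval below it.

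Other motifs gave a different picture. The cyclic AMP response element TGACGTCA, which ATF and CREB factors bind, occurred in the 300 bp around the middle of 0 of 195 sites, which allows a share of up to 1.54%, and of 0.313% of all sites. Over whole sites it occurred in 1 of the 195, a site of 3070 bp upstream of Fosb. It reads the same on both strands and does not contain the AP-1 motif. The motif CATTCC of TEAD factors, searched on both strands, was found in 28 sites (14.4%, interval 10.1 to 19.97%), compared to 18.2% of all sites. TEAD factors often occupy enhancers together with AP-1. TGACGTCA and CATTCC were found in 0 of the 9 RefSeq promoters of AP-1 genes, compared to 1.79% and 14.7% of all RefSeq promoters. The mean GC content of the 300 bp was 52.4% at the AP-1 genes and 50.0% over all sites.

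Other genes of the AP-1 pathway were examined as lists, which were chosen with earlier results of these data known. Of 37 genes, 36 had a promoter site by the middle of the site, and all 37 had a site that overlapped the promoter window. Over all protein-coding genes these shares were 54.7% and 55.8%, and at CpG-rich 5′ ends the share by the middle was 85.0%. The 36 genes comprised 14 of 14 other bZIP factors, 12 of 12 kinases and factors upstream of AP-1, 3 of 3 negative regulators and 7 of 8 known targets. The exception was Plaur, which encodes the urokinase receptor and whose promoter window was covered completely by a site with its middle further away. Elk4, a partner of SRF, Ccnd1, which encodes cyclin D1, and Atf1, a CREB relative, also had a cover of 100%. The median cover was 82.7% over the 37 genes and 16.5% over all protein-coding genes. Fosl2, Fos, Junb, Fosl1 and Jun lay above the median of the 37 genes.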

How the data were processed

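The 14 libraries of iMEF cells comprised 12 of H3K27ac ChIP-seq and 2 of input. Before deposit, the authors used Trim Galore for trimming, BWA for alignment to mm10, Picard to merge replicates and MACS to call peaks. Versions, the threshold and the way peaks were joined are not given in the sources used here. The authors deposited 1 list of site positions in bp (chromosome, start and end), and no count or score is part of it. If overlapping peaks were merged, a width can exceed that in any sample. Starts were read as counted from 0, since the narrowest sites then measured 200 bp, and are printed counted from 1. Positions were compared with GENCODE M21 and the sequence of GRCm38.p6, the build of the list. The authors used a later annotation release. Sites on other sequences than chromosomes 1 to 19 and X were left out.

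Members and gene lists were chosen with earlier results of these data known. All 10 members are named, neighbours where the window held a promoter site of theirs, and pathway genes with no promoter site or with the highest cover. Confidence intervals were 95% Wilson intervals, and a count of 0 allows up to 3 counts. No test was run, because the list has no value per sample. Alternatives comprised other windows, definitions of promoter and distal sites, merged sites and omission of the narrowest 25% of sites. Procedures were tested on simulated data, where the planted sites and cover of 200 of 200 genes and the planted motifs of 200 of 200 sequences were found. Calculations used pandas 2.3.3 and numpy 2.4.6 in Python 3.11.15, intervals came from scipy 1.17.1, and figures from matplotlib 3.10.9.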

Additional observations from a re-analysis of the deposited data

How the results depend on the processing

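Of 30 alternatives, 20 left a result within 1.5 times (counts), within 1 SD over the 10 genes (medians) or within the 95% interval (shares). Of these 30, 2 used RefSeq start sites and were added after the data were seen. With the outermost 5′ end alone, 4 AP-1 genes had a promoter site in place of 7. The count was 5 with TSSs of protein-coding transcripts only and 5 with RefSeq start sites, both within 1.5 times. The share over all protein-coding genes is not given for these 3 definitions. The 195 sites became 69 within 10 kb, 113 within 25 kb, 305 within 100 kb, 69 with sites less than 1 kb apart merged, and 107 when the nearest protein-coding TSS had to be that of an AP-1 gene. The median of 16.5 distal sites became 4 within 10 kb and 4.5 under that nearest-TSS rule. It was 10 within 25 kb, 27.5 within 100 kb and 6.5 with sites less than 1 kb apart merged, all moves of over 1.5 times, although within 1 SD over the genes. The share of sites with an AP-1 motif rose from 12.3% to 20% in 500 bp and 25.6% over whole sites, where the shares over all sites were 15.4% and 15.9%. Whole sites are not compared at equal length, since the median width was 607 bp at the AP-1 genes and 401 bp over all sites. The alternative windows hold fewer genes, fewer sites or more bases by construction. No paired analysis was possible because sites carry no value per sample, and for the same reason no replicate could be left out. Read depth, and with it the limit of detection of a site, was unknown.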
